A study of Mus musculus with 8 samples.

Results

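TFR cells and Treg cells are both Foxp3+ CD4 T cells, and the comparison described here sets one against the other across all genes of a mouse microarray. The cells came from immunized peripheral lymph nodes (pLN) of B6.Cg-Foxp3<tm1Mal> mice, a knock-in line in which EGFP reports Foxp3, and every mouse had received KLH in Alum. Of the 8 arrays of the series, 4 belong to this comparison: a Treg and a TFR sample at day 12 post immunization (d12) and a Treg and a TFR sample at day 25 (d25), so there were 2 arrays a side, chosen by their labels. The other 4 arrays held naïve CD4 T and TFH cells, which are Foxp3-, from the same 2 days. Per the labels the TFH cells were GL7+, while the TFR cells were GL7+/-. Per the methods, Treg cells were sorted as B220- CD4+ EGFP+ PD1- GL7- cells and TFR cells as B220- CD4+ EGFP+ cells with high PD1, with or without GL7. Per the labels, each sample was a pool of 8 to 15 mice of mixed sex aged 8 to 14 weeks, while the methods also give smaller pools and a different age range, and 25 ng of total RNA went into each labelling. The pools were bulk RNA, so fewer cells of a type and less RNA per cell cannot be told apart.

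Treg cells hold back other lymphocytes and depend on the transcription factor Foxp3, on high levels of the IL-2 receptor and on coinhibitory receptors such as Ctla4. TFR cells are the part of the Foxp3+ lineage that takes up the program of T follicular helper (TFH) cells: the transcription factor Bcl6, the receptor Cxcr5, which guides cells into B cell follicles, and the receptor Pdcd1 (PD1). They act inside follicles and germinal centres, where they limit the help that B cells receive from TFH cells. A resting Treg cell recirculates through lymph nodes with homing molecules such as Ccr7, and an activated one carries effector genes and chemokine receptors for other sites.

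Levels are given in relative units (RU), the deposited normalized signal of a gene's brightest probe, always in the order d12 and d25, and differences are log2 differences of TFR minus Treg, averaged over the 2 days, with the standard error (SE) of a limma model of all 8 arrays. A gene is called when its p after Benjamini-Hochberg adjustment across the tested genes is below 0.05, and a probe counts as measured on an array when most of its spots were well above background there. If neither array of a side measured the gene, its difference is a lower bound of the fold. Only 2 pools stand on each side. The p-values rest on the spread that cell type and day left over across all 8 arrays, moderated by limma. They do not measure the spread between single mice. Of 29924 gene names on the array, 15762 passed the filter of being measured on both arrays of at least 1 of the 4 cell types.

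The sorted cells carried the markers of their labels. Foxp3 (probe at X:7172301-7172360, NCBI37) read 39528 and 38897 RU in Treg against 30876 and 30906 RU in TFR pools, a log2 difference of -0.34 ± 0.16 with an adjusted p of 0.153. Both days lay a little lower in TFR cells, but the difference was not called, and normexp background correction brought it under the threshold (adjusted p = 0.0274). In the 4 Foxp3- samples Foxp3 stood between 79 and 390 RU. Cxcr5 (9:44320071-44320130) rose from 4106 and 2836 RU to 29354 and 29726 RU, by 3.11 ± 0.22 on the log2 scale. Il4 (11:53426076-53426135), the cytokine of follicular help, rose from 581 and 235 RU to 11092 RU on both days, by 4.91 ± 0.39. TFH cells read 53188 and 58215 RU. These are RNA levels. By flow cytometry after stimulation, the paper found almost no IL4 protein in Foxp3+ cells of pLN. Cebpa (7:35906517-35906576), a transcription factor better known from myeloid cells, rose from 294 and 104 RU to 5584 and 5742 RU, by 5.02 ± 0.59. Pdcd1, whose protein defined the gates, stood 4.19 ± 0.15 higher in TFR cells, which checks the sort and is not a finding. The pan-T cell gene Cd3e differed by -0.02 ± 0.14 (adjusted p = 0.908) and Cd4 by 0.33 ± 0.12 (adjusted p = 0.082).

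Markers of other cell types were read from lists. Of 20 B cell markers tested, 3 were called higher in TFR cells and none lower, with a median difference of -0.41. Without either TFH array, 5 were called higher and 5 lower, as 5 were called lower in the fit on the 4 Treg and TFR arrays alone; Cd79b read 6474 and 6881 RU in Treg against 3965 and 5491 RU in TFR cells and was not called. Pax5, Ebf1, Ighm and Igkc did not pass the filter. The 14 myeloid and dendritic cell markers tested summed to 72055 and 70692 RU in Treg and to 63789 and 64244 RU in TFR cells, most of it from Siglech and Itgam, which were also high in naïve CD4 T cells. Of these 14, 5 were called higher in TFR cells and none lower, and 3 without the TFR d25 array. Cd68 rose from 400 and 429 RU to 2742 and 2263 RU, C1qb from 126 and 146 RU to 343 and 425 RU and C1qc, measured on 1 of the 2 Treg arrays, from 67 and 80 RU to 357 and 471 RU. Csf1r differed by -0.33 and was not called, and Itgax, Adgre1 and Cd14 did not pass the filter. Of 11 CD8 T, NK and gamma-delta T cell markers, 5 were called lower in TFR cells and 2 higher, but no lower call was left without the TFR d12 array. Cd8b1 fell by 0.89 and Klrb1c rose from 92 and 45 RU to 861 and 790 RU. Klrb1c lost its call without the TFR d12 array (adjusted p = 0.051) and without the TFR d25 array (adjusted p = 0.054), and Cd8b1 also lost its call in some of these settings. The part of any of these cells in the differences below was not tested.

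Of the 15762 genes tested, 2945 were called higher in TFR than in Treg cells (18.7%) and 3269 lower (20.7%), 39.4% in all. These shares are the background for every list count given here. The lists were written with earlier results of these data known, so a count beside these shares describes the list and is no test. With a log2 difference of at least 1 asked for as well, 1532 genes were higher (9.72%) and 830 lower (5.27%). The filter let through genes measured in only some of the cell types. Among genes well above background on all 8 arrays the margin was narrower, with 746 higher and 588 lower. All 6214 called genes had the same direction on both days, as had 13273 of the 15762 tested. A call on the mean of 2 days nearly requires this, so it adds no support. Across the genes tested, the d12 difference and the d25 difference correlated at r = 0.886, a description across genes that are not independent and share their arrays' processing. Without the Treg d12, TFR d12, Treg d25 or TFR d25 array, 2587, 2440, 2763 and 2417 genes were called.

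**Figure D1:**
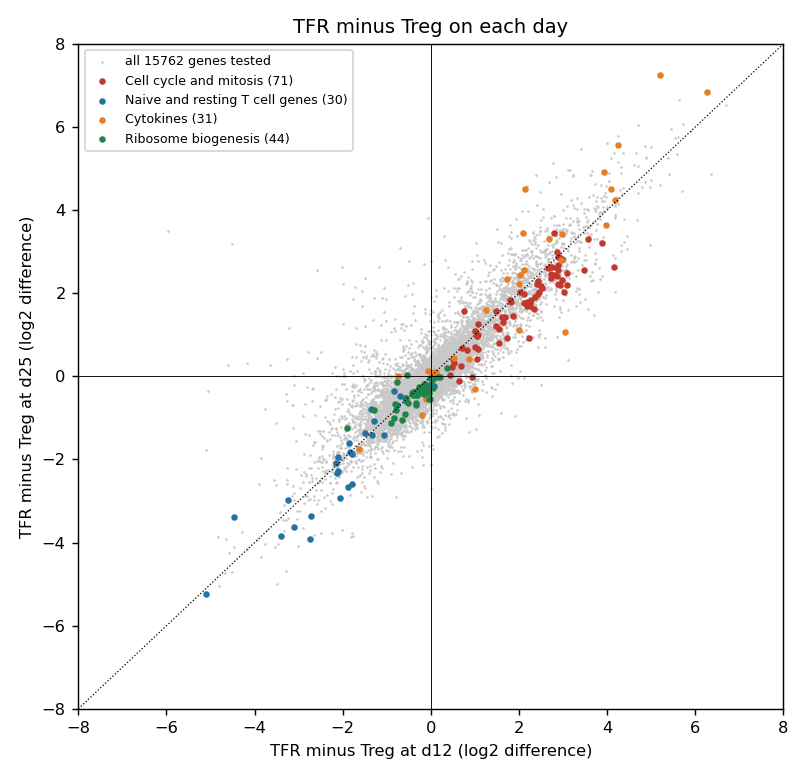
TFR minus Treg log2 difference at d12 (x axis) against that at d25 (y axis) for the 15762 genes tested (grey, 1 point per gene), with 4 gene lists in colour and the dotted line where the days are equal. Cell cycle genes and most cytokines lie in the upper right and naïve and resting genes in the lower left on both days.

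**Figure D2:**
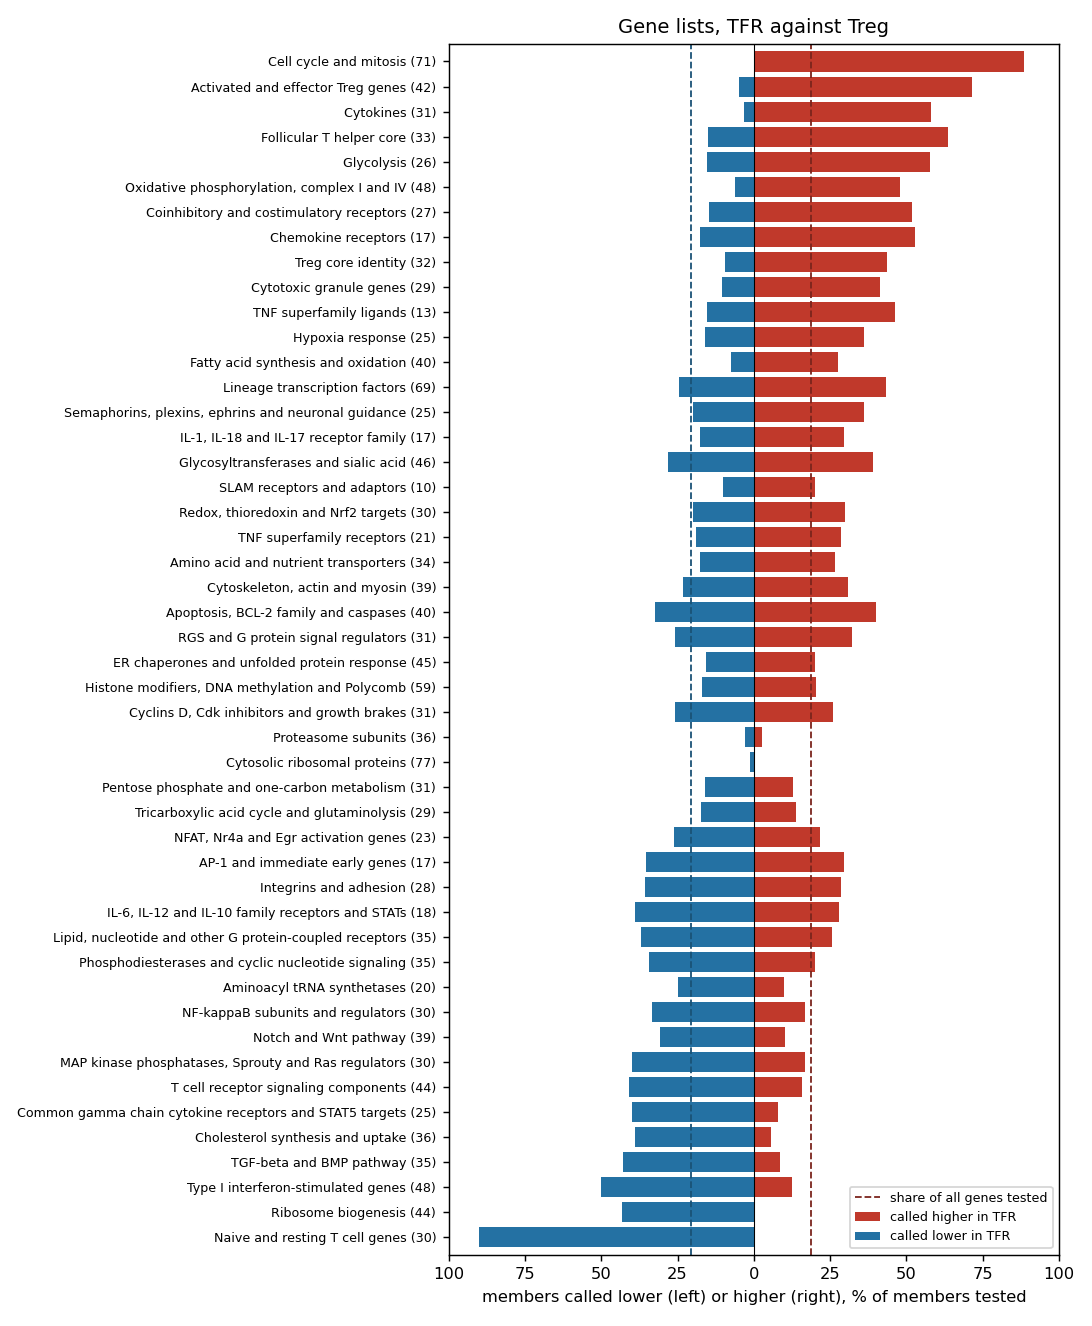
For each gene list (number of members tested in brackets), the percent of members called higher (right) and lower (left) in TFR cells, beside the share of all genes tested called in each direction (dashed lines, 18.7% and 20.7%). Cell cycle genes stand at the top and naïve and resting T cell genes at the bottom.

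The strongest single rises, among genes measured on all 4 arrays, were Cebpa, Serpinf1, Il4, D430019H16Rik, Slc7a10, Sccpdh, Gstt3, Tigit, Rad51b and Penk. Serpinf1, a secreted serpin, rose from 111 and 77 RU to 2791 and 3199 RU, and Gstt3, a glutathione transferase, from 173 and 247 RU to 4829 and 5787 RU. Rad51b, of the homologous recombination machinery, rose from 257 and 394 RU to 5237 and 8288 RU. Slc7a10, an amino acid transporter, rose by 4.86 ± 0.23, Sccpdh by 4.71 ± 0.56 and D430019H16Rik by 4.87 ± 0.26. In each of these genes both TFR pools lay above both Treg pools. The strongest falls were in Igfbp4, Gm34006, a gene listed only as ENSMUST00000103558, Art4, Chil5, G0s2, Tmem108, Gm11346, Drc1 and Treml2. Igfbp4 (11:98913334-98913393), a secreted binding protein of insulin-like growth factors, fell from 2630 and 2424 RU to 77 and 64 RU, by 5.17 ± 0.14 on the log2 scale. G0s2, an inhibitor of fat breakdown, fell from 1711 and 1464 RU to 95 and 82 RU. Tmem108, a membrane protein, fell by 3.94 ± 0.11 on the log2 scale by its brightest probe, but its other measured probe differed by only -0.26.

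Genes of naïve and resting T cells fell together. Of 30 tested, 27 were called lower in TFR cells and none higher, against the background of 20.7%, and 22 were lower by at least 1, with a median difference of -1.82. Leaving out an array left between 21 and 27 of them called lower. Ccr7, the receptor that guides cells to the T cell zone, fell from 86573 and 90048 RU to 20163 and 18533 RU. S1pr1, which lets lymphocytes leave the node, fell from 29437 and 30652 RU to 4452 and 2983 RU, and Klf2, the transcription factor that keeps S1pr1 on, from 93900 and 86684 RU to 25420 and 13702 RU. The chromatin organizer Satb1 fell from 38494 and 30278 RU to 5794 and 2000 RU. The gut-homing receptor Ccr9 fell from 1149 and 1008 RU to 52 and 97 RU, of which only 1 TFR array was above background. Tcf7, a transcription factor of both naïve and follicular cells, stayed high, 43769 and 48219 RU in Treg against 33182 and 36891 RU in TFR cells, and fell by 0.39 ± 0.09. Il7r differed by -0.60 and was not called.

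Of the 33 genes of the follicular core, 21 were called higher in TFR cells and 5 lower, with a median difference of 1.41. Bcl6, the factor that sets the follicular program, rose from 4994 and 4898 RU to 20536 and 27770 RU, and Ascl2, which acts early in that program, from 357 and 490 RU to 3578 and 6458 RU. Pou2af1, a coactivator shared with B cells, rose by 3.29 ± 0.33, and Il21, the main cytokine of help to B cells, from the floor of 20 RU on both days to 1551 and 2307 RU, at least 29.9-fold higher. The paper ascribes substantial Il4 and Il21 expression to TFR cells of Peyer's patches in the gut and not to those of pLN. Sh2d1a, the adaptor SAP of SLAM receptors, rose from 23006 and 20786 RU to 53653 and 63138 RU. The list did not move as a block. St8sia1, a sialyltransferase, fell from 7477 and 9161 RU to 1526 and 1548 RU, and the IL-6 receptor chain Il6ra from 37712 and 32253 RU to 18958 and 17365 RU. The TNF ligand Tnfsf8 fell by 1.09 ± 0.23, a call that was lost without the Treg d12 array (adjusted p = 0.0746) and without the TFR d12 array (adjusted p = 0.114). Without the TFR d12 array, 2 of the 5 lower calls were left.

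Few of the genes that define Treg cells, of which Icos is also on the follicular list, were called lower in TFR cells. Of 32 such genes tested, 14 were called higher in TFR cells, 3 lower and 15 were not called, with a median difference of 0.42. With so few arrays a side, the genes not called cannot be said to have kept their levels. Without the TFR d25 array fewer were called higher, as over all genes, so the drop does not single out that pool. The coinhibitory receptor Tigit rose from 751 and 426 RU to 12466 and 12647 RU, by 4.47 ± 0.38. Ebi3, a subunit of the cytokines IL-27 and IL-35, rose from 5860 and 4234 RU to 25591 and 25159 RU, and the chemokine receptor Ccr8 from 257 and 260 RU to 1303 and 1531 RU. Areg, a growth factor of tissue Treg cells, was at least 4.31-fold higher, as it was not above background in Treg cells. Tnfrsf4 (OX40) rose from 88369 and 90904 RU to 181156 and 186310 RU, with no overlap. Il10 read 476 and 205 RU in Treg and 2104 and 4656 RU in TFR cells, but with a spread that left an adjusted p of 0.0593, and several other ways of processing called it. Several raised members also rose in Foxp3- cells, taken as TFH minus naïve cells. There Tigit rose by 6.56, Ikzf2 by 6.23, Ebi3 by 3.65, Ctla4 by 3.61, Nt5e by 3.47 and Icos by 3.15. Each of these rises was larger than that of TFR over Treg cells. The other way, Klrg1 and Ccr8 rose less there, by 0.76 and 0.41, and Prdm1 and Capg differed by -0.67 and -0.27. Whether the rises belong to Treg identity or to the follicular program was not tested.

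Other raised members of the Treg list lost their calls when 1 of the 4 Treg and TFR arrays was left out. The difference of Ikzf2 then lay between 1.10 and 1.32. That of Klrg1 was 2.34 without the TFR d12 array and 2.48 without the TFR d25 array. Klrg1 stood at 1667 and 1259 RU against 6798 and 8719 RU (2.41 ± 0.39), and lost its call without the TFR d12 array (adjusted p = 0.0748) or the TFR d25 array (adjusted p = 0.0669). Ikzf2 (Helios), a zinc finger factor of Treg cells, stood at 8916 and 9917 RU against 19642 and 24128 RU (1.21 ± 0.19), with adjusted p between 0.0514 and 0.0717 when any of the 4 Treg and TFR arrays was left out, and Nrp1 (1.05 ± 0.19) likewise with 0.0597 to 0.0908. Icos, the costimulator of follicular cells, rose by 1.41 ± 0.19 and Tnfrsf18 (GITR) by 0.81 ± 0.11, and both missed the threshold without the TFR d25 array (adjusted p = 0.0535 and 0.0501). Prdm1 (1.28 ± 0.21) missed it without the Treg d25 array (adjusted p = 0.0662), and Nt5e (CD73, 1.35 ± 0.21) without the Treg d25 or the TFR d25 array (adjusted p = 0.0659 and 0.0584). Ctla4 (0.51 ± 0.09) had 0.0709, 0.0853 and 0.0828 without the Treg d12, Treg d25 and TFR d25 arrays, and Capg (0.46 ± 0.11) between 0.0641 and 0.147 without any of the 4.

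The 3 Treg genes called lower were Gpr83, Il2ra and Socs2. Gpr83, a receptor of Treg cells, fell from 671 and 897 RU to 145 and 228 RU, by 2.09 ± 0.12. Il2ra (CD25), the high-affinity chain of the IL-2 receptor, stood at 22127 and 24181 RU in Treg and 12789 and 17384 RU in TFR cells, a fall by 0.63 ± 0.11 whose adjusted p was 0.0835, 0.068 and 0.0549 without the Treg d12, TFR d12 and Treg d25 arrays. Socs2, a target of STAT5, fell by 1.49 ± 0.25, with adjusted p of 0.0522, 0.0679 and 0.0805 without the Treg d12, TFR d12 and TFR d25 arrays. Cish, another STAT5 target, read 26353 and 28729 RU in Treg and 22722 and 25437 RU in TFR cells and was not called. Further members with differences under 0.7 and no call were Ikzf4, Lrrc32, Tnfrsf9, Izumo1r, Entpd1, Lrig1, Itgae, Tgfb1, Fgl2, Gzmb, Il1rl1 and Swap70. With the mean of all its probes Tnfrsf9 differed by 1.23 and was called (adjusted p = 0.00669), against 0.16 by its brightest probe. Lrrc32, Lrig1 and Swap70 were also called in some other settings. Itgae pointed opposite ways on the 2 days, with -0.07 at d12 and 0.68 at d25.

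**Figure D3:**
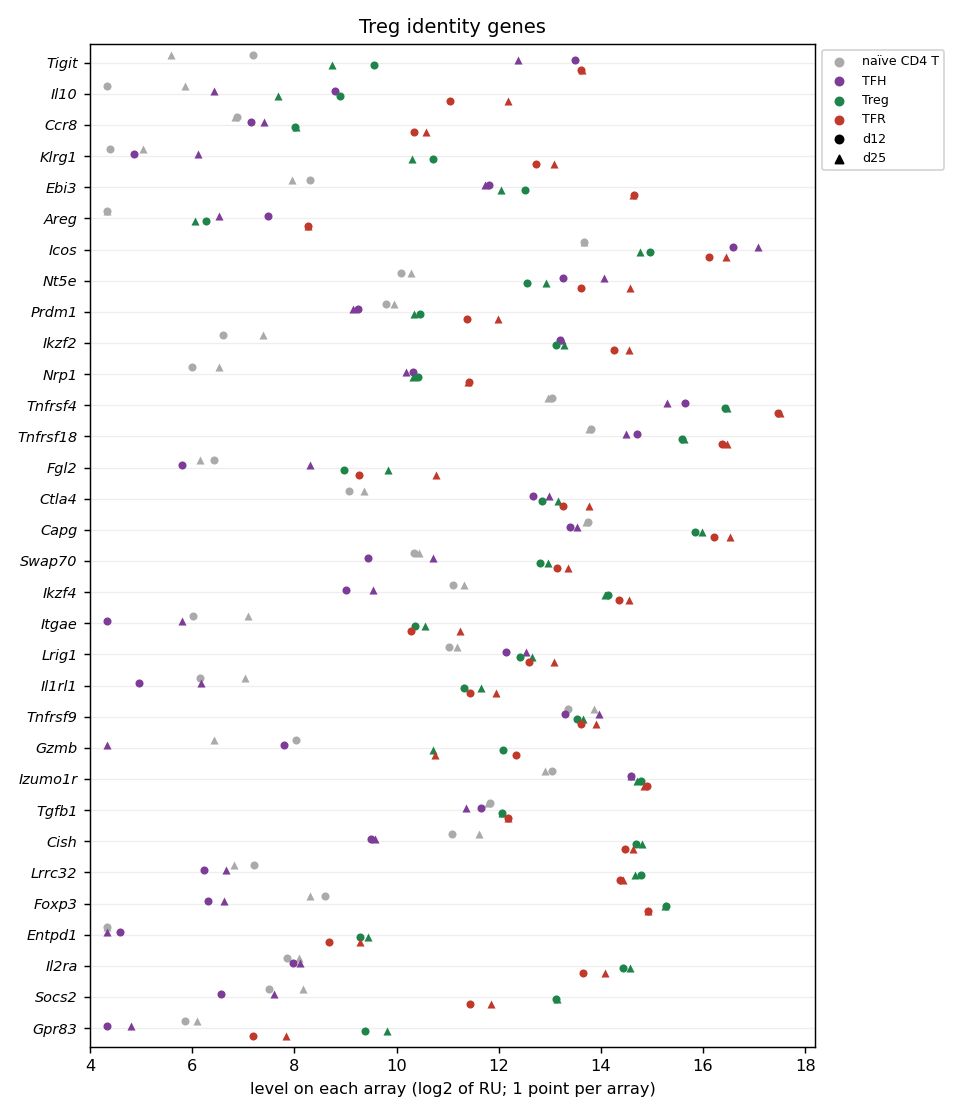
Level of each of the 32 Treg identity genes on all 8 arrays (log2 of RU, 1 point per array, circles d12 and triangles d25), ordered by the TFR minus Treg difference. Tigit, Il10 and Ccr8 stand at the top and Gpr83 and Socs2 at the bottom, while Foxp3 differs little between Treg and TFR cells.

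Genes of activated and effector Treg cells rose more evenly. Of 42 tested, 30 were called higher and 2 lower, with a median difference of 1.44, and 20 were still called higher without the TFR d25 array. Batf, a factor of effector differentiation, rose from 14753 and 12429 RU to 50672 and 53399 RU. The annexin Anxa2 rose from 7405 and 7167 RU to 44833 and 40868 RU and the calcium-binding S100a11 from 24838 and 22440 RU to 100875 and 107287 RU. Havcr2 (TIM-3) rose from 88 and 67 RU, above background on 1 of 2 Treg arrays, to 617 and 372 RU. The coinhibitory receptor Lag3 rose from 730 and 616 RU to 5072 and 8972 RU. The interferon-inducible chemokine receptor Cxcr3 rose by 1.90 ± 0.16 and its factor Tbx21 by 1.73 ± 0.20. Ly6c1, whose sequence is close to that of a neighbouring family member, fell from 120666 and 121420 RU to 43612 and 38848 RU.

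Most cytokine genes rose. Of 31 tested, 18 were called higher in TFR cells and 1 lower, with a median of 2.06. Only 20 of the 31 were measured on all 4 arrays, and of those 10 were called higher and 1 lower. Penk, the precursor of enkephalin peptides, rose from 4628 and 4849 RU to 79410 and 109695 RU (4:4060724-4060783), by 4.30 ± 0.31. The chemokine Ccl1, a ligand of Ccr8, rose from 167 and 37 RU to 6121 and 5692 RU and was above background on 1 of the 2 Treg arrays. Its other measured probe rose by 2.09, against 6.23 for the brightest. Il13 was at the floor in Treg pools and reached 305 and 602 RU in the TFR pools, at least 6.76-fold higher. Xcl1 rose from 385 and 353 RU to 7003 and 6684 RU, and Ifng from 150 and 266 RU to 2369 and 3297 RU. Csf1, the growth factor of macrophages, rose from 997 and 848 RU to 4066 and 4635 RU. Both TFR pools lay above both Treg pools in each of these genes. Il18 rose by 2.88 ± 0.11 and Cxcl10 by 3.20 ± 0.16, products also of macrophages, and the myeloid genes Cd68 and C1qb rose beside them, by 2.59 and 1.49, whose part was not tested. Osm was the only cytokine called lower, from 794 and 869 RU to 256 and 260 RU. Tnf, Lta, Ltb and Il16 differed by less than 0.1 and were not called.

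**Figure D4:**
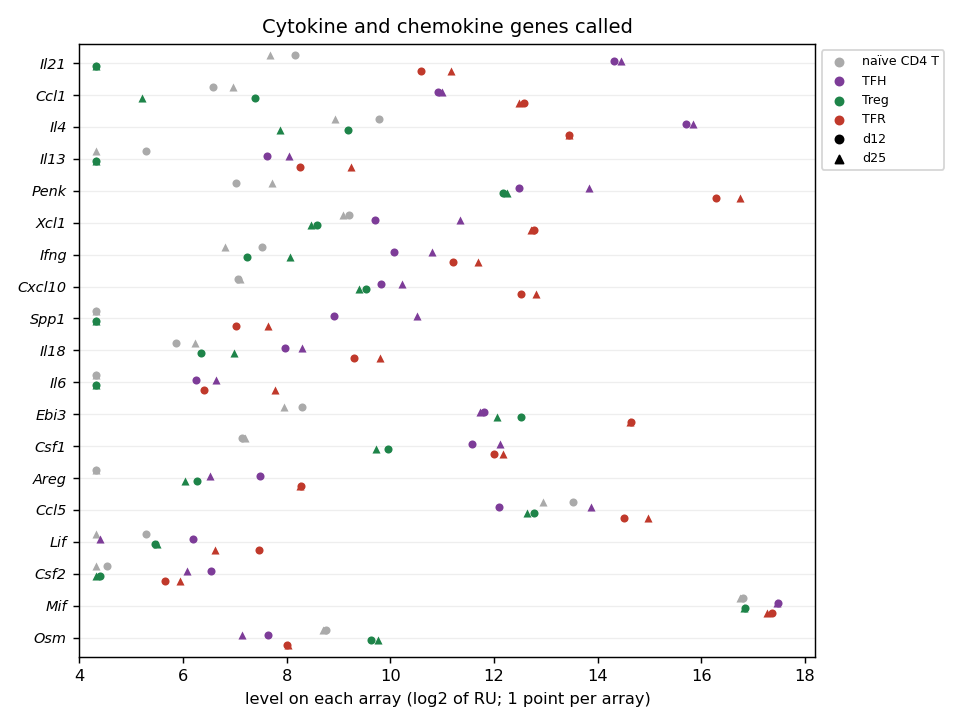
Level of each of the 19 called cytokine and chemokine genes on all 8 arrays (log2 of RU, 1 point per array, circles d12 and triangles d25), ordered by the TFR minus Treg difference. In 18 of them both TFR points lie to the right of both Treg points; points near 4.3 are at the floor of 20 RU.

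The TNF superfamily moved by member. Of 13 ligands tested, 6 were called higher and 2 lower, with a median of 0.09. Of the 10 measured on all 4 arrays, 4 were called higher and 2 lower. Cd70, the ligand of the costimulator Cd27, read 39 and 60 RU in Treg pools, not above background, and 1887 and 2453 RU in the TFR pools, at least 33.7-fold higher. Tnfsf13b (BAFF), a survival factor of B cells, read 57 and 51 RU against 489 and 583 RU, at least 8.43-fold higher. Of 21 receptors, 6 were called higher and 4 lower, with a median of 0.12. Of the 17 measured on all 4 arrays, 3 were called higher and 4 lower. Those counts lay near the shares of all genes tested, 18.7% and 20.7%. Cd40, not above background in Treg cells, was at least 5.33-fold higher with 337 and 390 RU in TFR cells, while Tnfrsf25 (DR3) fell from 18105 and 21389 RU to 9815 and 9863 RU and Relt by 1.16 ± 0.11. Lower calls went to none of the ligands and 2 of the receptors without the TFR d12 array.

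Of 27 coinhibitory and costimulatory receptors, 14 were called higher and 4 lower, with a median of 0.66, and 8 were called higher without the TFR d25 array. Pvrl2 (nectin-2), a ligand of Tigit family receptors, read 23 and 37 RU in Treg pools, not above background, and 343 and 379 RU in the TFR pools, at least 5.69-fold higher. Among the 4 Foxp3- samples Pvrl2 read 20 to 31 RU. Of the SLAM family, 2 of 10 genes were called higher and 1 lower; Slamf9 was at least 3.11-fold higher and Ly9 fell by 0.50 ± 0.08, a call lost under some settings.

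Of 17 chemokine receptors, 9 were called higher and 3 lower, with a median of 0.98; 5 were called higher without the TFR d25 array. Beside Cxcr5, Ccr8 and Cxcr3, the receptor Ccr6 stood at 6259 and 4001 RU in Treg and at 28434 and 26282 RU in TFR cells, and Cxcr4, which places cells near the dark zone, at 363 and 882 RU against 1697 and 2542 RU. The receptor Ccrl2 rose by 1.53 ± 0.12. The receptors of the T cell zone and gut, Ccr7 and Ccr9, were among the 3 that fell. Of 35 receptors for lipids, nucleotides and peptides, 9 were called higher and 13 lower. Vipr1, a receptor for the neuropeptide VIP, fell from 6226 and 6775 RU to 1041 and 801 RU. Another measured probe of Vipr1 differed by -0.69, against -2.83 for the brightest. Its paralog Vipr2 went from the floor to 109 and 214 RU, at least 2.41-fold higher, a call lost with a floor of 100 RU. The leukotriene receptor Cysltr2 rose from 254 and 253 RU to 721 and 1043 RU.

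Genes that act downstream of such receptors were called in both directions. Of 31 RGS and G protein genes, 10 were called higher and 8 lower. Rgs9, which ends G protein signals, rose from 195 and 254 RU to 2755 and 3698 RU and the alpha subunit Gnaq from 253 and 250 RU to 834 and 1144 RU. Rgs1 fell from 20825 and 25991 RU to 11314 and 14426 RU. With the TFR d12 array left out, 5 were called higher, and without the TFR d25 array 1 was called lower. Of 35 phosphodiesterase and cyclic nucleotide genes, 7 were called higher and 12 lower. Crem, a repressor of cAMP targets, rose by 1.57 ± 0.18. Without the TFR d25 array 2 were called higher, and without the Treg d25 array 4 were called lower.

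Receptors of the common gamma chain and targets of STAT5 leaned to lower levels: 10 of 25 were called lower and 2 higher, with a median of -0.44, and 3 were called lower without the Treg d12 array. The survival gene Bcl2 fell from 6628 and 6836 RU to 1259 and 1365 RU and the IL-4 receptor chain Il4ra from 4547 and 4570 RU to 1125 and 941 RU. The prostaglandin receptor Ptger2 rose from 998 and 1497 RU to 3281 and 5104 RU. Across the IL-6, IL-12 and IL-10 receptor group, 5 of 18 were called higher and 7 lower, and both chains of the interferon-gamma receptor fell, Ifngr1 from 37740 and 40209 RU to 17497 and 16246 RU and Ifngr2 from 5530 and 5690 RU to 1739 and 1610 RU. Without the TFR d25 array no higher call was left in this group. The ligand Ifng rose in the same cells, by 3.81 ± 0.40. In the IL-1 and IL-17 receptor group, 5 of 17 were called higher and 3 lower. Only 12 of the 17 were measured on all 4 arrays, and of those 2 were called higher and 3 lower. Il17rb, a receptor for IL-25, was at least 5.05-fold higher and Il17rd at least 4.06-fold higher, whereas Irak3, a brake on IL-1 signals, fell from 891 and 941 RU to 102 and 152 RU and Il18bp, which traps IL-18, by 2.12 ± 0.27.

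Components of T cell receptor signalling were more often lower: 18 of 44 were called lower and 7 higher, with a median of -0.28, against the background of 20.7% and 18.7%, and 6 were called lower without the TFR d25 array. The Tec family kinases Tec and Txk fell, Tec from 1960 and 1801 RU to 355 and 478 RU and Txk from 7969 and 8506 RU to 1966 and 1716 RU. Among 23 activation genes of the NFAT, Nr4a and Egr families, 5 were called higher and 6 lower; Ier3 was at least 2.35-fold higher. Without the TFR d25 array 1 of the lower calls was left in that group, and no higher call in the T cell receptor group. Of 17 AP-1 and immediate early genes, 5 were called higher and 6 lower. Jdp2, a repressor that dimerizes with Jun, rose from 265 and 234 RU to 3496 and 3715 RU, and Dusp1 by 1.12 ± 0.13, while Bach1 fell by 1.36 ± 0.09. Jun itself stood at 1713 and 792 RU against 365 and 202 RU, a call lost without the TFR d25 array (adjusted p = 0.0526). Of 30 NF-kappaB genes, 5 were called higher, none of them without the TFR d25 array, and 10 lower; Map3k14 (NIK) fell from 5215 and 5205 RU to 2286 and 2226 RU and Nfkbiz by 1.19 ± 0.13. Of 30 MAP kinase phosphatases and Ras regulators, 5 were called higher and 12 lower. Dusp14 rose from 406 and 472 RU to 2736 and 3416 RU and Dusp16 by 2.49 ± 0.27. Lower calls in the 3 last groups fell to 4, 2 and 4 without the TFR d12, TFR d12 and TFR d25 array.

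The cell cycle genes rose as a group. Of 71 tested, 63 were called higher in TFR cells and none lower, against the background of 18.7%, and 57 were higher by at least 1, with a median of 2.02. The filter let through 7 members that were not measured on all 4 arrays, and of the 64 that were, 56 were called higher. The median difference was 2.24 at d12 and 1.83 at d25. Without the TFR d12 array 42 were called higher. Mki67, the proliferation antigen, rose from 921 and 980 RU to 6160 and 6045 RU, and Ccna2 (cyclin A2) from 1210 and 1149 RU to 7608 and 6997 RU. The nucleotide synthesis genes Rrm2 and Tk1 rose by 2.55 ± 0.11 and 2.90 ± 0.15, and the transcription factor Mybl2 from 468 and 416 RU to 3471 and 2681 RU. Cdc6, a licensing factor of replication, was not above background in Treg cells and was at least 3.94-fold higher, Esco2 at least 3.75-fold and Cdk1, the kinase of mitosis, at least 7.11-fold higher. Every value in TFR cells lay above both Treg values in these genes. Members that were not called included Cdk2, at 703 and 816 RU against 671 and 668 RU, Cdt1 and E2f2.

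Because the cell cycle genes moved together, the promoters of 4 members with an entry in RefSeq's promoter table (GRCm38.p6) are shown. They are the members with the largest rise after the genes of a single chromosome were left out. Each runs from 250 bases before to 50 after the start site, written 5′ to 3′ along the gene. Capitals mark CCAAT, the letters bound by NF-Y, and TTTGAA or TTTAAA, the core of the cell cycle homology element, on either strand, so that some appear as their reverse complement. Cdc6 lies at chr11:98907901-98908200 on the plus strand, Cdk1 at chr10:69352863-69353162, E2f8 at chr7:48881547-48881846 and Tk1 at chr11:117825965-117826264, all 3 on the minus strand.
Cdc6: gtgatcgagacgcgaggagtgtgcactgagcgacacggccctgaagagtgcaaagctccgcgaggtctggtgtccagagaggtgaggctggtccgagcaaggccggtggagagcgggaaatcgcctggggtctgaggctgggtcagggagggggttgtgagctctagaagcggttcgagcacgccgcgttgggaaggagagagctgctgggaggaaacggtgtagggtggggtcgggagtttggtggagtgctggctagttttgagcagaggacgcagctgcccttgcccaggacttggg
Cdk1: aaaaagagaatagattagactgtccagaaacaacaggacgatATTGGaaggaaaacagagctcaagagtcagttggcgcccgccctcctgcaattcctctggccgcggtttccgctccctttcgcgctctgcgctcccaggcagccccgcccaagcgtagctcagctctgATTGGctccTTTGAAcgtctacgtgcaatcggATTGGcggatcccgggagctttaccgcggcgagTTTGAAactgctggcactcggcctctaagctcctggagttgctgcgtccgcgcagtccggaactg
E2f8: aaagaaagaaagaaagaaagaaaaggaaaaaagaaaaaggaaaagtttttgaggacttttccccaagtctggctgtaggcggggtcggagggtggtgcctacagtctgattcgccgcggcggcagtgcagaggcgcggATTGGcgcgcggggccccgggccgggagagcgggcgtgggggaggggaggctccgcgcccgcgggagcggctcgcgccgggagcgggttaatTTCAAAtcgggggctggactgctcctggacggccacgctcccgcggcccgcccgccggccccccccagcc
Tk1: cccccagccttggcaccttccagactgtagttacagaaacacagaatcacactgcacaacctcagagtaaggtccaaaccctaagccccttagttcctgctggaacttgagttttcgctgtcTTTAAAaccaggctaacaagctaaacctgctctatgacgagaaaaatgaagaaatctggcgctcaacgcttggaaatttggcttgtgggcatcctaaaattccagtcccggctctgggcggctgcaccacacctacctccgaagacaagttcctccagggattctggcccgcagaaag
The Cdk1 window held 5 matches, 3 of CCAAT and 2 of TTTGAA, the E2f8 window 1 of each, the Tk1 window 1 of TTTAAA and the Cdc6 window none of these letters. Of all 32851 promoters in the table, 37.4% held CCAAT, 17.9% TTTGAA and 13.2% TTTAAA. Of the 63 promoters of 57 cell cycle genes, 69.8%, 42.9% and 22.2% did.

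Genes that restrain the cycle moved both ways beside this. Of 31 D-type cyclins, Cdk inhibitors and growth brakes, 8 were called higher and 8 lower, with a median of -0.23. Cdkn2b (p15), an inhibitor of Cdk4 and Cdk6, was not above background in Treg cells and was at least 5.6-fold higher, at 269 and 468 RU. Slfn1, a gene of quiescent T cells, fell from 1972 and 1695 RU to 453 and 375 RU, and Cdkn2d (p19) from 28012 and 25591 RU to 15632 and 11199 RU. With the TFR d12 array left out, 3 of the 8 lower calls and 5 of the 8 higher calls were left.

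**Figure D5:**
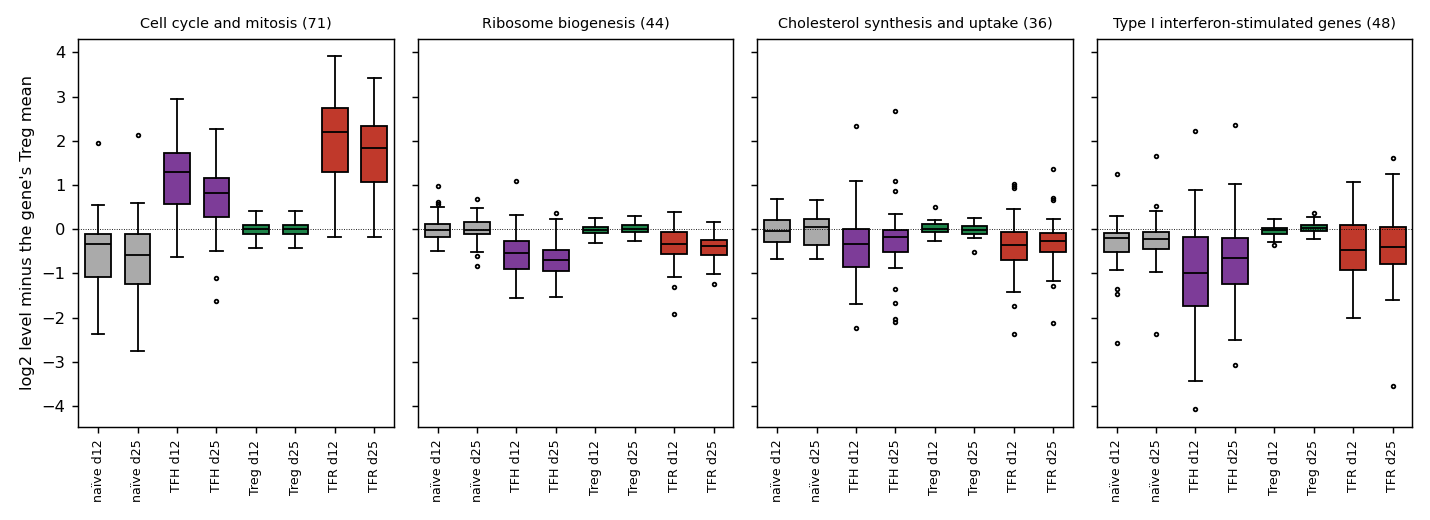
Level of each tested member of 4 gene lists on all 8 arrays, as log2 level minus the gene's mean over the 2 Treg arrays; boxes span the quartiles with the median, whiskers reach 1.5 times the box, and dots lie beyond. The cell cycle medians of both TFR arrays lie above all other arrays, and the ribosome biogenesis medians of TFR and TFH arrays lie below those of Treg and naïve arrays.

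Glycolysis genes rose in part. Of 26 tested, 15 were called higher and 4 lower, with a median of 0.47, and 7 were called higher without the TFR d25 array and 1 lower without the TFR d12 array. The lactate exporter Slc16a3 rose from 1497 and 1694 RU to 8309 and 9367 RU, Aldoc (aldolase C) by 2.39 ± 0.23 and Tpi1 from 14260 and 15605 RU to 41812 and 43944 RU. Gapdh stood at 170300 and 170670 RU against 297936 and 297126 RU. Pdk1, which keeps pyruvate out of the mitochondria, fell from 4048 and 4944 RU to 1564 and 1297 RU, and the glucose transporters Slc2a3 and Slc2a1 fell by 1.01 and 0.45, the former a call lost without any of the 4 arrays. Of the respiratory chain, 23 of 48 genes of complexes I and IV were called higher and 3 lower, but none differed by 1 or more, the median was 0.27, and no higher call was left without the TFR d12 array. Cox8a stood at 141118 and 126277 RU against 229005 and 212835 RU (0.73 ± 0.09), a call lost without the TFR d12 array.

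Cholesterol genes leaned the other way. Of 36 tested, all measured on the 4 arrays, 14 were called lower and 2 higher, with a median of -0.31, and 6 were called lower without the Treg d12 array. Srebf2, the transcription factor of the pathway, fell from 8290 and 6921 RU to 4300 and 3409 RU, and the synthesis enzyme Sqle by 0.99. Pmvk, of the same pathway, rose by 0.82 ± 0.10. Of 40 fatty acid genes, 11 were called higher and 3 lower, and 6 were called higher without the TFR d12 array and none lower without the TFR d25 array. Pparg, the nuclear receptor of fat storage, rose from 127 and 124 RU to 468 and 591 RU and Dgat2, which makes triglyceride, from 1570 and 1231 RU to 3850 and 4737 RU, and outside Foxp3+ cells Dgat2 stayed between 204 and 257 RU.

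Other metabolic lists held calls in both directions, beside 18.7% higher and 20.7% lower over all genes tested. The counts of the pentose phosphate and one-carbon list and of the tricarboxylic acid list lay below both shares. Of 31 genes of the pentose phosphate and one-carbon pathways, 4 were called higher and 5 lower; Psat1, of serine synthesis, rose from 6990 and 7015 RU to 20599 and 19781 RU and Aldh1l1 fell by 1.18 ± 0.11. Those counts went to 1 and 2 without the TFR d12 array. Of 29 genes of the tricarboxylic acid cycle and glutamine use, 4 were called higher and 5 lower, which went to no higher call without the Treg d12 array and 1 lower call without the TFR d25 array. Glul fell by 0.80, a call lost without the TFR d25 array. Of 34 transporters, 9 were called higher and 6 lower, with Slc2a6 rising from 251 and 210 RU to 3225 and 4330 RU and the zinc carrier Slc30a4 falling by 1.84 ± 0.20. Of 30 redox genes, 9 were called higher and 6 lower. Srxn1 (sulfiredoxin) rose from 96 and 154 RU to 2473 and 2103 RU and the metallothionein Mt1 from 301 and 428 RU to 2935 and 2951 RU, while Txnip, which binds thioredoxin, fell from 31421 and 38201 RU to 10342 and 14977 RU. Of the transporters 3 and of the redox genes 2 were called lower without the TFR d12 array. Of 25 hypoxia genes, 9 were called higher and 4 lower; the oxygen sensor Egln3 rose from 303 and 334 RU to 1443 and 1344 RU, Car9 was at least 2.24-fold higher and Egln1 fell by 1.12 ± 0.12. Without the TFR d25 array 2 hypoxia genes were called higher.

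The machinery of protein synthesis did not rise with the cell cycle. Of 44 ribosome biogenesis genes, 19 were called lower in TFR cells and none higher, with a median of -0.34, against the median of all genes of -0.07; the differences were small, with 3 members lower by at least 1, and 4 were called lower without the TFR d25 array. Rrp12 stood at 176 and 180 RU against 47 and 76 RU, of which 1 TFR array was above background, and the pre-ribosome factor Nob1 fell from 4274 and 5212 RU to 2281 and 2382 RU. Polr1b, a subunit of RNA polymerase I, fell by 0.93 ± 0.14 and Rrp9 by 0.80 ± 0.08. Myc, the factor that drives these genes in growing cells, stood at 11349 and 12524 RU in Treg and 5521 and 4714 RU in TFR cells, a fall by 1.22 ± 0.19 whose adjusted p was 0.0584, 0.0592 and 0.0699 without the TFR d12, Treg d25 and TFR d25 arrays. Of 77 cytosolic ribosomal proteins, 1 was called lower, Rps3, for which another probe pointed the other way, and none higher, and their median was -0.01. Of 36 proteasome subunits, 1 was called in each direction, and of 20 aminoacyl tRNA synthetases, 2 higher and 5 lower, with no lower call left without the TFR d25 array. Of 45 endoplasmic reticulum and unfolded protein response genes, 9 were called higher and 7 lower, near the shares of all genes tested. Asns (asparagine synthetase) rose from 731 and 487 RU to 3322 and 2459 RU, and Trib3 fell by 1.40 ± 0.20. Without the TFR d12 array 2 were called in each direction.

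Type I interferon-stimulated genes were more often called lower than higher. Of 48 tested, 24 were called lower and 6 higher, with a median of -0.44, and 8 were called lower without the Treg d12 array and 1 higher without the TFR d25 array. Usp18, which limits the interferon response, stood at 7268 and 8394 RU in Treg and 2321 and 2558 RU in TFR cells, a fall by 1.68 ± 0.23 with adjusted p of 0.0542 without the Treg d12 array and 0.0584 without the TFR d25 array. Oas2 stood at 289 and 393 RU against 84 and 29 RU, a call lost without either Treg array. The Oas and Ifi families have close paralogs that array probes may share.

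Of 69 lineage transcription factors, 30 were called higher and 17 lower, with a median of 0.31. Vitamin D receptor Vdr, not above background in Treg cells, was at least 4.88-fold higher, and Cebpd at least 8.2-fold higher. Nfil3 rose from 994 and 826 RU to 5241 and 8793 RU and Bhlhe40 from 761 and 662 RU to 4503 and 6345 RU. Gata1, the erythroid factor, fell from 9952 and 9612 RU to 966 and 870 RU, by 3.42 ± 0.17; the other erythroid genes Hba-a1 and Hbb-b1 differed by -0.31 and -0.62 and were not called. Etv3 fell by 2.18 ± 0.15. With the TFR d12 array left out, 19 of these factors were called higher.

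Adhesion and shape genes moved by member. Of 28 integrins and adhesion genes, 8 were called higher and 10 lower, and 6 lower without the TFR d12 array. The integrin chain Itgb3 fell from 9725 and 8815 RU to 2048 and 1263 RU and Pecam1 from 2441 and 3292 RU to 675 and 906 RU, while Itgb5 rose from 53 and 84 RU to 1385 and 1788 RU and Vcam1 from 77 and 79 RU to 382 and 875 RU, each above background on 1 of 2 Treg arrays. Vcam1 is also a gene of stromal and myeloid cells, whose part was not tested. Of 39 cytoskeletal genes, 12 were called higher and 9 lower. Cnn3 (calponin 3) fell from 2651 and 3903 RU to 264 and 294 RU and Actn1 by 2.23 ± 0.17, whereas Pdlim7 rose from 494 and 473 RU to 2136 and 1982 RU and Acta2 was at least 3.75-fold higher. Without the Treg d25 array 5 were called higher, and without the TFR d25 array 4 were called lower. Of 25 guidance genes, 9 were called higher and 5 lower, the latter 2 without the TFR d25 array. The semaphorin receptor Plxnb2 rose from 196 and 189 RU to 2017 and 2521 RU, Sema4a fell from 8758 and 8092 RU to 2496 and 1929 RU and Nrp2 by 2.59 ± 0.26.

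In the TGF-beta and BMP pathway 15 of 35 genes were called lower and 3 higher, with a median of -0.30, and 8 were called lower without the TFR d12 array. The type I receptors went apart: Acvrl1 fell from 1242 and 1396 RU to 279 and 329 RU, Acvr1c, at the floor in TFR cells, was at least 2.91-fold lower, and Acvr1 rose from 234 and 315 RU to 1158 and 1768 RU. Acvr1c was also at the floor in all 4 Foxp3- samples. In the Notch and Wnt pathways 12 of 39 genes were called lower and 4 higher, and 6 were called lower without the TFR d12 array. The Notch target Hey1 rose from 202 and 122 RU to 1517 and 762 RU and Wls, which carries Wnt proteins, from 4737 and 5336 RU to 10449 and 16891 RU.

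Of 40 genes of cell death, 16 were called higher and 13 lower. The antiapoptotic Bcl2a1c, of a family of near-identical copies, rose from 8231 and 7088 RU to 36568 and 35241 RU while Bcl2 fell, and the inflammatory caspase Casp4 rose from 6677 and 5534 RU to 26207 and 27878 RU, whereas Casp8 fell from 16695 and 20942 RU to 7337 and 9114 RU. Without the TFR d12 array 6 were called higher and 3 lower. Of 29 cytotoxic granule genes, 12 were called higher and 3 lower, with a median of 0.37. Nkg7 rose from 8059 and 6437 RU to 42203 and 42395 RU, whereas Prf1 (perforin) fell from 4218 and 3844 RU to 1437 and 1288 RU. With the TFR d12 array left out, 9 were called higher and 1 lower.

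Glycosyltransferases moved both ways: 18 of 46 were called higher and 13 lower. Of the 40 measured on all 4 arrays, 13 were called in each direction. Galnt14, which starts O-glycan chains, was not above background in Treg cells, at 37 and 66 RU. It read 1160 and 1559 RU in TFR cells, at least 20.1-fold higher (17:73843114-73843173), and in the Foxp3- samples it lay between 34 and 92 RU. Another measured probe of Galnt14 rose by 1.56, against 4.77 for the brightest. The sialyltransferase St8sia6 fell from 10877 and 12906 RU to 1417 and 2506 RU. Without the TFR d12 array 11 were called higher and 5 lower. Of 59 histone modifiers and genes of DNA methylation, 12 were called higher and 10 lower, near the shares of all genes tested, with a median of -0.10. Uhrf1, which carries DNA methylation through replication, rose from 1298 and 1403 RU to 7315 and 6388 RU. The acetyltransferase Kat2b fell from 1464 and 1832 RU to 440 and 636 RU. Without the TFR d25 array 4 were called higher and 2 lower.

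The Foxp3- samples allow the same follicular difference to be taken as TFH minus naïve CD4 T cells, and whether it differed from TFR minus Treg was tested in the same model. It was called in 1294 of 15762 genes (8.21%), and between 252 and 1046 genes were called when an array was left out. In the follicular core list 19 of 33 genes were called, and in the Treg list 14 of 32. Cxcr5, measured on all 8 arrays, rose less in Foxp3+ cells, with a difference of changes of -3.59 ± 0.31 on the log2 scale. The other way, Nkg7 rose more in TFR cells by 2.37 ± 0.41 and Ccr8 by 2.04 ± 0.16, both also measured on all 8 arrays. In Nkg7, Ccr8, Galnt14, Pvrl2 and Havcr2 both TFR pools lay above every other array. No size is given for the last 3, nor for Ascl2, since at least 1 of the other cell types was not above background. Of the cell cycle list 7 of 71 were called, and none of the 48 respiratory, 77 ribosomal protein or 44 ribosome biogenesis genes. TFH cells were sorted as GL7+ and TFR cells with or without GL7, so Foxp3 and this gate cannot be told apart here.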

How the data were processed

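RNA of the sorted populations was amplified in a single round, labelled with a fluorescent dye and hybridised to 1-colour Agilent mouse arrays, per the labels. The scans were extracted with Agilent Feature Extraction 10.7.3.1, as the submitters' processing notes state. The authors deposited normalized intensity values on a linear scale, for which they combined each probe's 4 spots, applied quantile normalization, set the 75th percentile to 1500 and the floor to 20, and they deposited each scanner's intensity values and spot flags. Here log2 was taken of the deposited normalized intensity. The probe with the highest mean log2 over the 8 arrays stood for a gene, and a gene was tested if it was well above background, in over 50% of its kept spots, on the 2 arrays of any cell type.

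limma 3.58.1 in R 4.3.3 fitted cell type and day over all 8 arrays, with 3 residual and 1.87 prior degrees of freedom and Benjamini-Hochberg adjustment over 15762 genes. The fit was tested on simulated data. Treg and TFR arrays of a day deviated together from their cell type means (r = 0.445), with only 2 days. A lower bound of a fold sets the brighter mean against the lowest signal among probes well above background, or the dim probe's own level where that is higher. Between 86.4% and 89.2% of spots were kept on an array, and 18254 to 19867 probes were well above background. Positions are those of the probes in the scanner files (NCBI37), and 20857 genes matched a RefSeq symbol.

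The members and lists were chosen with earlier results of these data known. Named were the 4 markers and the Treg identity list, the 10 largest rises and falls measured on all 4 arrays, in each list up to 2 largest rises and falls outside the genes of the paper, and bright members of the marker lists. Of these 227 genes, those whose call held under all alternatives were preferred in the text, and further list members were named as examples after their values were seen. A few genes are not reported here. Alternatives covered normalization, background correction, filters, floor, probe choice, blocks, test and leaving out each array. Values of separate arrays of the same cell type and day from the study's other experiments were not analysed here.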

Additional observations from a re-analysis of the deposited data

Results flagged for a closer look

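For 66 of the named genes reported here the TFR minus Treg difference differed from the TFH minus naïve CD4 T difference in the limma model (adjusted p below 0.05, against 8.21% of all genes tested). The number beside each gene is the first log2 difference minus the second. Of the genes that were above background on at least 1 array of every cell type, the number was negative in Cxcr5 (-3.59), Pdcd1 (-2.35), Ikzf2 (-5.02), Ctla4 (-3.10), Tnfrsf4 (-1.43), Izumo1r (-1.50), Nt5e (-2.12), Lrig1 (-0.93), Ebi3 (-1.30), Icos (-1.74), Gstt3 (-0.88), ENSMUST00000103558 (-4.73), Ccr9 (-2.19), St8sia1 (-1.44), Tnfsf8 (-3.22), Ly6c1 (-1.24), Jdp2 (-2.41), Bach1 (-0.82), Ptger2 (-2.995), Il12rb1 (-1.37), Rgs1 (-3.84), Pecam1 (-1.24), Bcl2a1c (-1.41), Casp4 (-1.36), Osgin1 (-4.45), Egln3 (-3.47), Egln1 (-1.11) and Xbp1 (-1.26). It was positive in Foxp3 (1.64), Ikzf4 (2.27), Cish (1.61), Prdm1 (1.96), Ccr8 (2.04), Treml2 (1.075), Aldh1l1 (0.85), Pparg (1.59), Dgat2 (1.49), Ppp3ca (1.85), Il4ra (2.04), Relt (0.90), Itgb3 (2.72), Sema4a (1.23), Acvrl1 (3.08), Nkg7 (2.37), Prf1 (1.01), Dusp14 (1.08) and St8sia6 (3.09). The other genes were not above background on either array of at least 1 cell type, so that the number depends there on the background and the floor and is no measured size. Among them it was negative in Nrp1 (-2.94), Slc7a10 (-1.70), Ascl2 (-6.34), Il9r (-4.22), Tnfsf13b (-1.96), Vipr2 (-3.44), Cysltr2 (-1.68), Gnaq (-1.19), Efnb2 (-1.01), Acvr1c (-3.04), Hey1 (-2.36) and Kdm7a (-1.27), and positive in Havcr2 (2.64), Esco2 (1.69), Cd40 (1.93), Pvrl2 (3.31), Slamf9 (1.64), Car9 (2.09) and Galnt14 (4.02). Havcr2 and Acvr1c were at the floor on all 4 Foxp3- arrays. The number for Slc7a10 turned positive under 2 ways of processing, given below.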

How the results depend on the processing

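Against the 6214 genes called, 3999 were called with no filter on dim probes (1969 of them lower) and 4186 with no day term, that is with no replicate block (1942 lower). The fit on the 4 Treg and TFR arrays alone with the day as replicate block called 5257. The methods' test with Tukey's adjustment called 3802 genes unadjusted over genes (1749 lower) and 872 after Benjamini-Hochberg (547 higher, 325 lower). With a log2 difference of at least 1 also asked for, normexp background correction gave 1522 genes (450 lower), a filter on all 8 arrays 1334 (746 higher), no filter 542 lower, and the methods' test after Benjamini-Hochberg 570 (400 higher, 170 lower). The difference between both follicular changes was called in 434 genes with no filter, 766 with no day term (no replicate block) and 610 with the slide as block. Leaving out an array in turn gave between 2417 and 6688 genes called, 1342 to 3104 higher, 1005 to 3584 lower, and 252 to 1046 for the difference between the changes. Of 201 named genes called, 125 kept their call under all 19 alternatives in limma, 14 lost it only when an array was left out, and none changed direction, while 57 of them were called by the methods' test after Benjamini-Hochberg. Signs turned in some values that were not called, and in a difference of changes. Leaving out an array moved Cd3e between -0.124 and 0.0765, Tnfrsf9 between -0.027 and 0.354, Itgae between -0.18 and 0.78, Gzmb between -0.28 and 0.56 and Il1rl1 between -0.0673 and 0.483. Over the mean of all probes Siglech came to 0.36 and Tnfrsf9 to 1.23, and the Slc7a10 difference of changes to 0.47 with normexp and 0.63 with a floor of 100 RU. The cause was not tested. All d12 arrays lay on the same slide and the d25 Treg and TFR arrays on another, so each TFR minus Treg difference was taken within a slide, and day and slide cannot be told apart. With 2 pools a side, the number of arrays limits the precision, and for dim probes only a bound can be given.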

Other observations

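Some genes pointed opposite ways on the days. In 63 genes the d12 and the d25 difference had opposite signs and lay at least 2 log2 units apart. Of these, 35 (55.6%) are named in the files only by an Ensembl transcript, against 937 (5.94%) of the genes tested. The TFR minus Treg difference of 33 of the 35 was higher on d25 and that of 2 on d12, and none of the 35 was called. No table used here pairs these transcripts with a gene name.

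Among 8 markers of antibody-secreting cells, 2 were called higher and 2 lower in TFR cells, with a median of 0.00, and neither higher call was left without the Treg d25 array. The list summed to 52298 and 47317 RU in Treg and to 39462 and 46995 RU in TFR cells.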
